A study of Mus musculus with 24 samples.

Results

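Mammary tissue of PyMT and FVB females was compared over the whole course of tumor development, with all 24 samples of the series in 1 fit, 12 PyMT against 12 FVB. PyMT mice were F1 females heterozygous for the MMTV-PyVT transgene, bred from males of the MMTV-PyVT line on the FVB/N background and FVB females. They carry the polyoma middle T oncogene behind the MMTV promoter, which is active in mammary epithelium. FVB females of the same ages, without the transgene, were the controls. There were 3 mice of each genotype at week 6 (hyperplasia), week 8 (adenoma/MIN), week 10 (early carcinoma) and week 12 (late carcinoma), and every library came from 1 mouse. Week entered the fit as a blocking factor, so that each PyMT library was set against FVB libraries of its own age and the result is 1 PyMT over FVB difference per gene, shared by the 4 weeks. By the paper, the PyMT samples were mammary tumors and the FVB samples normal mammary glands, so the kind of tissue taken also differs. The comparison asks which genes differ between PyMT tumors and normal FVB glands whatever the stage. Transcripts of the viral transgene itself were not analysed here, so the genotype of the libraries rests on their labels.

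Middle T is a membrane protein without enzymatic activity of its own. It binds Src family kinases and protein phosphatase 2A, and once phosphorylated it recruits Shc, phospholipase C gamma and phosphatidylinositol 3-kinase, which feed the MAPK and AKT pathways. A normal virgin gland is a sparse tree of ducts, with an inner luminal layer and an outer contractile basal layer, embedded in a fat pad with fibroblasts, vessels and nerves. A tumor replaces much of that fat pad with epithelium. Both lists of signaling genes and lists of cell type markers are therefore described below. In bulk RNA fewer cells of a type and less RNA per cell cannot be told apart, and every level below is a share of the RNA of the whole tissue.

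The libraries held 6969375 to 13516601 counts, with medians of 8264500 in PyMT and 8472280 in FVB. A packet, a local peak at 5 or more reads when genes were tallied by count, was found in 13 of them (6 PyMT, 7 FVB). Whether counts also gathered at multiples of that peak was not tested. In 7 libraries (3 PyMT, 4 FVB) 12 skeletal muscle markers summed to over 1000 CPM, counts relative to the library total. Normalized counts below are counts divided by DESeq2's size factors, and fold changes are on the log2 scale, PyMT over FVB, with their standard error (SE). Differentially expressed genes (DEGs) had a Benjamini-Hochberg adjusted p under 0.05 by edgeR's quasi-likelihood test and a fold change above 2. Leaving out the 13 packet libraries removed every PyMT library of week 6 and every FVB library of week 10. Values without the packet libraries therefore compare the genotypes at weeks 8 and 12 only, with fewer mice. Whether a value or call that changed there did so through packets, weeks or sample size was not tested.

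Of 14918 genes tested, 1269 were higher in PyMT (8.51%) and 2571 were lower (17.2%), in all 3840 DEGs (25.7%). At the adjusted p alone 7620 genes passed (51.1%), of which 3525 were higher and 4095 lower. Among these, 2256 higher and 1524 lower genes differed by a fold of at most 2. Large losses also outnumbered large gains, as 1388 DEGs fell by more than 2 on the log2 scale and 409 rose by more than 2. Beyond 4 the order was the same, with 163 lower and 57 higher genes. Among the genes named below for the largest change, however, gains reached 9.55 (2310057J18Rik) and losses -5.07 (Nos1). After TMM scaling the median over all tested genes was -0.03 on the log2 scale. This split depends on the scaling. With counts scaled to library size alone the median moved to 0.26, and 2050 genes were higher and 2002 lower, so that 49.4% of DEGs were lower against 67% after TMM scaling.

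A stricter reading of the same data asks whether the groups overlap at all. In 697 genes (4.67%) the lowest of the 12 PyMT libraries lay above the highest of the 12 FVB libraries, and in 1077 genes (7.22%) every PyMT library lay below every FVB library. These included 488 of the higher and 983 of the lower DEGs. On CPM of the library total, without DESeq2's size factors, the order turned, with 1213 genes higher and 698 lower. Pooling the weeks brought the median SE of a log2 fold change to 0.21, against 0.42 for the difference at a single week, and the 95% interval lay within 1 of no change in 6804 genes (45.6%). The plot of fold change by mean count shows both wings of DEGs over the whole range of expression.

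**Figure D1:**
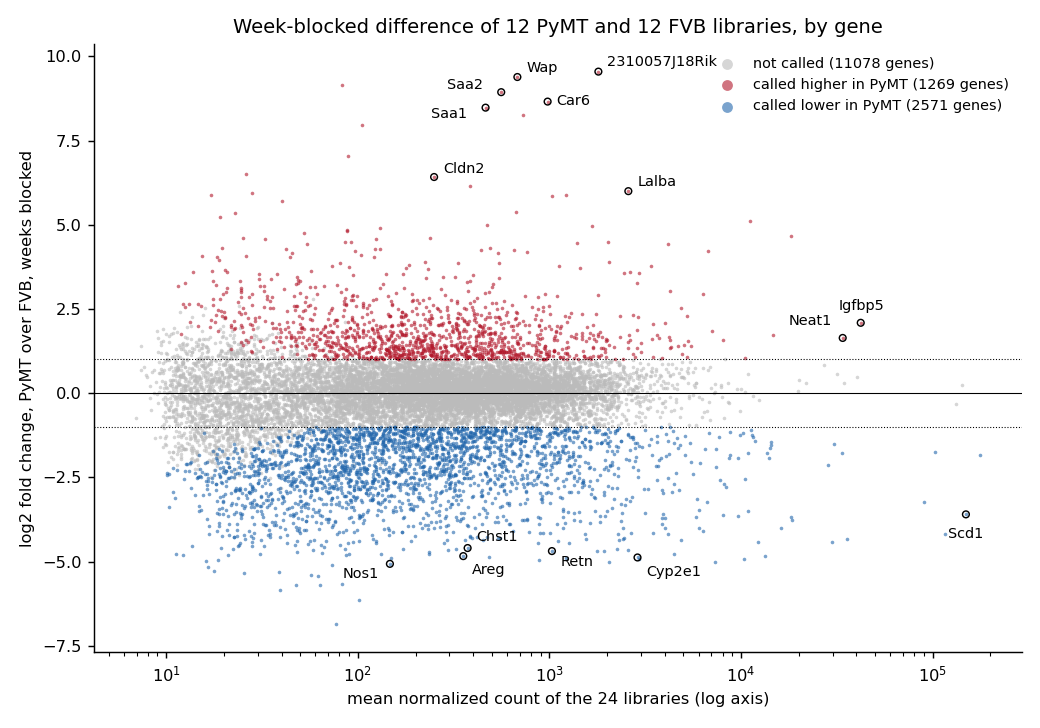
Each point is 1 of the 14918 tested genes, placed by its mean normalized count over 24 libraries (x, log axis) and its week-blocked log2 fold change, PyMT over FVB (y). The 1269 higher DEGs are red, the 2571 lower DEGs blue and other genes grey, dotted lines mark a fold change of 2, and circles mark named genes such as Wap at 9.39 and Nos1 at -5.07.

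The genes with the largest increase included the milk genes Wap and Lalba and the serum amyloid genes Saa1 and Saa2. They were the 10 DEGs with the largest log2 fold change that averaged 100 or more normalized counts and whose groups did not overlap. Wap, the whey acidic protein of milk (chr11:6531490-6538652, minus strand, mm9), ran from 206 to 5240 normalized counts in PyMT (median 766) and from 0 to 11.6 in FVB (median 0.359). Its log2 fold change was 9.39 ± 0.49 (SE, edgeR adjusted p = 8.36e-13), and in order of age its weekly values were 9.66, 8.19, 9.78 and 9.64. The 3 highest PyMT values, 5240, 1540 and 3590, were the 3 libraries of week 6, and without the packet libraries, these 3 included, the value of Wap was 10.23. Lalba, which encodes the alpha-lactalbumin subunit of lactose synthase, read 3140 to 9860 in PyMT (median 4830) and 1.76 to 449 in FVB (median 16.3), a log2 fold change of 6.00 ± 0.77. Lalba was at 4.56 without the packet libraries and at 7.38 without the muscle libraries. Without replicate 1 of FVB week 6 it was at 6.60, and without replicate 3 of FVB week 10 at 6.67.

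Serum amyloid A genes, whose products are secreted acute phase apolipoproteins, stood with the milk genes. Saa1 ran from 228 to 2700 normalized counts in PyMT (median 708) and from 0 to 23.5 in FVB (median 1.07), a log2 fold change of 8.48 ± 0.56. Saa2 ran from 288 to 3500 in PyMT (median 719), and its FVB values reached 25.5 with a median of 0, a log2 fold change of 8.94 ± 0.49. The 2 genes are near-identical neighbors on chromosome 7, so the division of reads between them is uncertain. Single FVB libraries weigh on both values. Without replicate 3 of FVB week 10 the value of Saa1 was 9.66, and without replicate 1 of FVB week 6 that of Saa2 was 10.57. Without the muscle libraries they were 10.59 and 10.1, and without the packet libraries 7.81 and 10.05.

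Bhlha15, a transcription factor of secretory cells also known as Mist1, read 383 to 1250 in PyMT (median 739) and 0 to 30.2 in FVB (median 11.5), and its log2 fold change was 6.15 ± 0.44, or 5.12 without the packet libraries. Cldn2, a tight junction claudin that forms cation pores, read 284 to 754 in PyMT and 0 to 30.3 in FVB, a log2 fold change of 6.42 ± 0.54. Car6, a secreted carbonic anhydrase, reached 8.66 ± 0.55, and 6.65 without the packet libraries. Abpb, a subunit of a secreted androgen-binding protein with many paralogs, reached 8.27 ± 0.66, and 9.38 without the muscle libraries. Ankrd22, an ankyrin repeat gene, read 80.1 to 524 in PyMT, against 0 to 8.11 in FVB (7.95 ± 0.59), and without replicate 1 of FVB week 6 its value was 9.42. Without the muscle libraries Ankrd22 was at 9.18 and without the packet libraries at 7.23. The first place belonged to 2310057J18Rik with 9.55 ± 0.99, but 1 library, replicate 2 of PyMT week 8, held 32900 normalized counts against 18.8 to 2390 in the other PyMT libraries. Without that library its log2 fold change was 8.13, without the packet libraries 8.5 and without the muscle libraries 10.3.

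The 10 largest decreases, chosen in the same way, included Retn, Cyp2e1, Areg and Nos1. Retn, which encodes the adipokine resistin, ran from 0.938 to 200 normalized counts in PyMT (median 61.1) and from 912 to 3930 in FVB (median 1880), a log2 fold change of -4.69 ± 0.45 (adjusted p = 4.86e-09). Cyp2e1, a cytochrome P450 of the endoplasmic reticulum, ran from 1.88 to 920 in PyMT and from 2780 to 11300 in FVB (-4.88 ± 0.60, and -5.61 without the packet libraries). Ces1f, a carboxylesterase with close paralogs, fell by 4.63 on the log2 scale, with PyMT libraries at 0 to 109 and FVB libraries at 261 to 1050. All 3 differed less at week 6, with values of -2.99, -2.54 and -2.26, than at any later week, and the test between weeks, described at the end, did not pass for them.

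Areg encodes amphiregulin, a ligand of the EGF receptor that estrogen induces in the ducts. It read 0 to 97.5 in PyMT (median 12.4) and 136 to 2530 in FVB (median 504), a log2 fold change of -4.84 ± 0.63 (adjusted p = 7.71e-07). Both groups were wide, and the PyMT library nearest to FVB was replicate 2 of week 10 with 97.5. Without it the value of Areg was -5.54, and without the packet libraries -5.71. Nos1, the neuronal nitric oxide synthase, read 0 to 39.2 in PyMT, against 116 to 672 in FVB. Nos1 fell by 5.07 (-5.85 without the muscle libraries), which made it the gene with the largest decrease under the rule used. The homeobox gene Hoxc8 (-4.40 ± 0.66, and -3.66 without the packet libraries), the DM domain factor Dmrt2 (-4.90 ± 0.63), the phosphatase 1 inhibitor Ppp1r1a (-4.79 ± 0.64), the membrane protein gene Tmem182 (-4.78 ± 0.68) and the sulfotransferase Chst1 (-4.60 ± 0.43) completed the set.

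**Figure D2:**
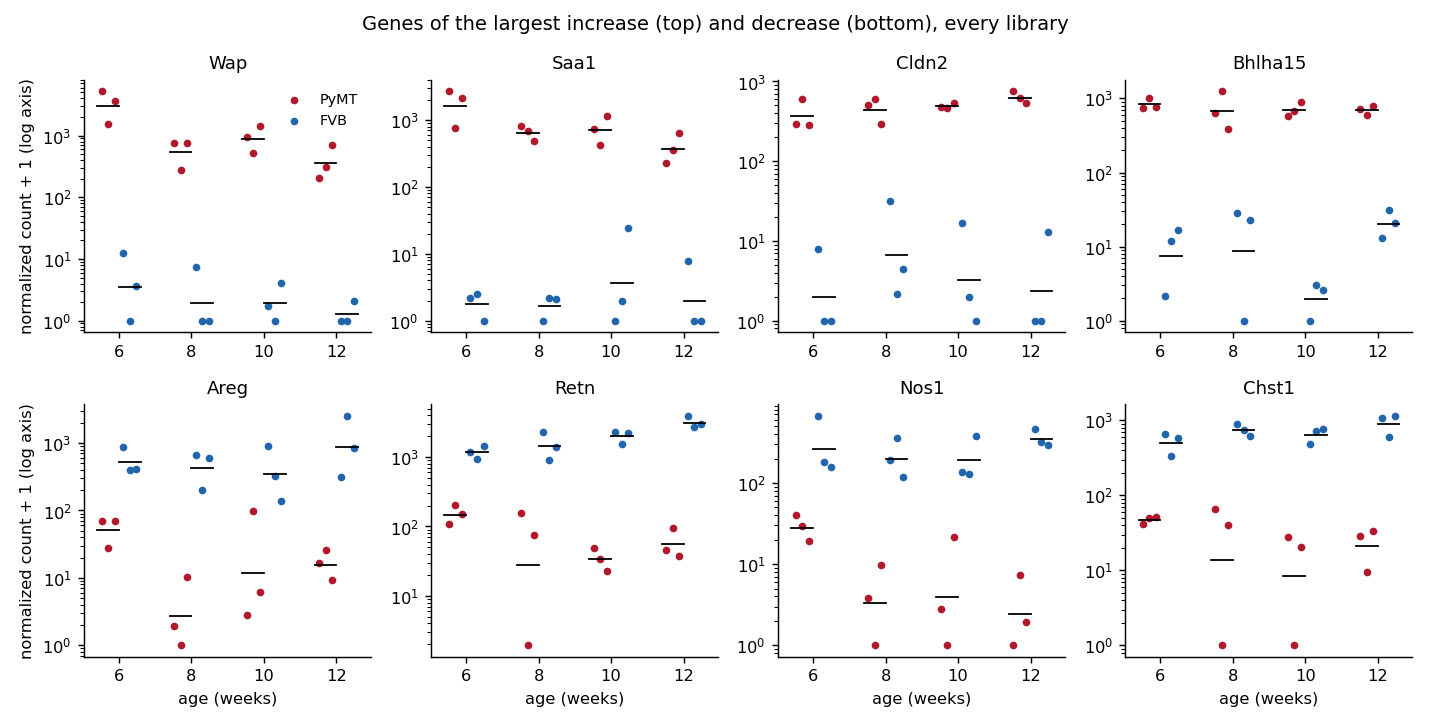
Every library of 4 genes with a large increase (Wap, Saa1, Cldn2, Bhlha15) and 4 with a large decrease (Areg, Retn, Nos1, Chst1), as normalized count plus 1 (y, log axis) by age in weeks (x). Red points are PyMT and blue points FVB libraries, 3 per group and week, bars are geometric means, and in no panel do the 12 red and 12 blue points overlap, for example 206 to 5240 against 0 to 11.6 in Wap before 1 was added.

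Some genes with a small difference were also separated. Among genes that passed with a fold of at most 2, the 5 with the largest F statistic in each direction, among those averaging 100 or more normalized counts, had no overlap between genotypes, a separation that the choice by F favors. Ergic2, a cargo receptor between the endoplasmic reticulum (ER) and the Golgi, read 981 to 1510 in PyMT (median 1220) and 478 to 730 in FVB (median 622), a log2 fold change of 1.00 ± 0.07 (adjusted p = 3.3e-11) that just missed a fold of 2. Its weekly values were 1.00, 1.13, 0.88 and 0.98. The translocon subunit Ssr2 (0.99 ± 0.08), the protein disulfide isomerase Pdia3 (0.85 ± 0.07), the kinase Map3k1 (0.93 ± 0.08) and the arginyl-tRNA synthetase Rars (0.95 ± 0.08) were the others that rose. On the lower side were the glutamate dehydrogenase Glud1 (-0.99 ± 0.09), the nuclear factor I gene Nfia (-0.98 ± 0.09), the dystroglycan gene Dag1 (-0.94 ± 0.09), the splicing factor Rbfox2 (-0.91 ± 0.09) and Ccdc50 (-0.75 ± 0.07). Ccdc50 held 1170 to 1550 normalized counts in PyMT and 1940 to 2640 in FVB, and its weekly values stayed between -0.77 and -0.71.

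At the other end were genes that hardly differed. Among genes with a mean of at least 1000, the narrowest intervals around no change belonged to the ubiquitin ligase Arih1 (0.00 ± 0.07), Fam120a (0.02 ± 0.06), the transcription factor Sp1 (0.00 ± 0.07), the autophagy gene Wipi2 (0.03 ± 0.06) and the RNA-binding ligase Rc3h2 (0.00 ± 0.08). The 95% interval of Arih1 ran from -0.15 to 0.14, and Arih1 read 1210 to 1500 in PyMT and 1130 to 1720 in FVB. With RLE size factors these 5 genes lay between -0.02 and 0.01, but with library size alone they lay between 0.28 and 0.32 and passed.

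By share of all counts, the PyMT libraries were led by noncoding RNAs and the FVB libraries by a fat gene. The small nuclear RNA 7SK took 2.03% of counts in PyMT and 1.39% in FVB, Malat1 took 1.53% and 1.56%, and the mitochondrial ribosomal RNA mt-Rnr2 took 1.03% and 2.72%. Igfbp5, which encodes an insulin-like growth factor binding protein secreted by mammary epithelium, took 0.893% in PyMT against 0.166% in FVB. Its 12 PyMT libraries read 43800 to 94500 (median 67900) and the FVB libraries 10700 to 26400 (median 14300), a log2 fold change of 2.09 ± 0.13. The paraspeckle RNA Neat1 likewise rose, by 1.64 ± 0.15, without overlap. Scd1, a fatty acid desaturase, took 2.83% of the FVB counts and 0.317% of the PyMT counts (-3.6 ± 0.25), and Fasn, fatty acid synthase, fell by 3.23. The giant muscle protein gene Ttn took 1.88% of the FVB counts, but its FVB values ran from 83.7 to 920000 and without the 7 libraries rich in muscle RNA its log2 fold change was -1.71 (adjusted p = 0.156).

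For the lists below, the shares of all tested genes to compare with were 8.51% higher and 17.2% lower DEGs. Those without overlap were 4.67% higher and 7.22% lower. Milk genes as a list rose. All 12 tested members passed, 10 of them as higher DEGs, and their median log2 fold change was 3.05 against -0.03 over all tested genes. The most abundant was Csn3, kappa-casein, which stabilizes the casein micelle. It held 24900 to 47100 normalized counts in PyMT (median 35300) and 194 to 4080 in FVB (median 1210), a log2 fold change of 4.68 ± 0.37 (adjusted p = 2.1e-10). Folr1, a folate receptor, rose by 5.00 ± 0.34 (4.07 without the packet libraries), and Muc15, a mucin of the milk fat globule membrane, rose by 1.87 ± 0.28, both without overlap.

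The calcium-sensitive caseins were far more variable than Csn3. Csn2, beta-casein, ran from 127 to 23400 in PyMT (median 2740) and from 21.4 to 1420 in FVB (median 135), so that the groups overlapped, and its log2 fold change was 3.57 ± 0.87 (adjusted p = 0.0013). Without replicate 2 of FVB week 8 the value of Csn2 was 4.35. Its PyMT values at week 6 were 23400, 5300 and 15100, whereas at week 12 they were 1790, 313 and 2550 beside FVB values of 1420, 21.4 and 1410. By week the log2 fold change of Csn2 was 5.34 ± 1.49, 2.70 ± 1.32, 5.23 ± 1.5 and 0.72 ± 1.25. Csn1s1 (2.52 ± 0.63), Csn1s2a (3.90 ± 0.92) and the fat globule gene Btn1a1 (1.75 ± 0.47) had the same kind of spread. With the 13 packet libraries left out, these 4 genes no longer passed and 5 of 12 milk genes were still DEGs. That leaves no PyMT library of week 6 and no FVB library of week 10. The genotypes were then compared at weeks 8 and 12 only, where Csn2 was at 2.70 and 0.72 with all libraries. Packets and weeks could not be told apart here. Xdh (0.86 ± 0.16) and Mfge8 (0.74 ± 0.18), which coat the milk fat globule, rose by less than a fold of 2. Glycam1 and Csn1s2b did not reach the filter on low counts. Glycam1 had up to 280 CPM in a PyMT library and at most 0.899 CPM in FVB.

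The promoters of 2 caseins are shown because Csn1s1 and Csn2 sit in 1 gene cluster, rose together and hold the same motif in the windows searched. STAT5, the factor that carries the prolactin signal, binds TTCNNNGAA, which reads the same on both strands. This motif was sought, after the list's values were known, in RefSeq windows of GRCm38.p6 from 250 bases before to 50 after the start. It was in 4 of the 8 milk genes with a window and in 9.55% of all 27025 genes with one. The 4 were Csn1s1, Csn2, Csn1s2a, where the match begins 20 bases after the start, and Glycam1, which was not tested. Capitals mark the match, and the windows are chr5:87665958-87666257 (plus strand) for Csn1s1 and chr5:87699376-87699675 (minus strand) for Csn2.
Csn1s1: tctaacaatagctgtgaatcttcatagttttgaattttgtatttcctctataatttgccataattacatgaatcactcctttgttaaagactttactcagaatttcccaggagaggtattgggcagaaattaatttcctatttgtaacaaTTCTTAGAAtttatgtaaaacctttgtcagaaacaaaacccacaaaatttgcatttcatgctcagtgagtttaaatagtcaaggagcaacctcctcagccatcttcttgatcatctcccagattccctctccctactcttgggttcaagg
Csn2: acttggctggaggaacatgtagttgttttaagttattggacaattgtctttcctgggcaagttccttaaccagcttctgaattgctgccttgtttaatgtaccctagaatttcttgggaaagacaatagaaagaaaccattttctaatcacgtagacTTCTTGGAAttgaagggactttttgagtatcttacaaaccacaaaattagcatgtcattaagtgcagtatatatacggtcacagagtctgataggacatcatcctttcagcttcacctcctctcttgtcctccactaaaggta
The matches begin 100 and 93 bases before the start. Of the named milk genes Wap had no match in its window, which says only that these letters are not there.

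Luminal markers split into 2 directions. Of 18 tested members, 9 were higher and 4 were lower DEGs, beside 8.51% and 17.2% of all tested genes. Their median log2 fold change was 1.13. Epcam, an adhesion molecule of all epithelia, read 4520 to 8170 in PyMT (median 5280) and 535 to 2320 in FVB (median 1310), a log2 fold change of 2.04 ± 0.17 (adjusted p = 4.07e-10). Krt8 (1.72 ± 0.26) and Krt18 (1.49 ± 0.19), the paired keratins of simple epithelium, rose by similar amounts. The claudins Cldn3 (1.85 ± 0.27) and Cldn7 (1.84 ± 0.22), E-cadherin (Cdh1, 1.33 ± 0.19) and the epithelial transcription factors Ehf (2.08 ± 0.30) and Grhl2 (1.43 ± 0.21) also rose. Krt19, another keratin of the list, passed in the other direction with a fold of at most 2 (-0.59 ± 0.23). It did not pass when some 1 library was left out.

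Transcription factors and receptors of the luminal list stood on both sides. Elf5, the ETS factor that drives alveolar differentiation, read 2810 to 5100 in PyMT (median 3720) and 418 to 1200 in FVB (median 807), a log2 fold change of 2.29 ± 0.17. Kit, a receptor of luminal progenitors, passed with 0.92 ± 0.17, and Gata3, a factor of all luminal cells, with 0.77 ± 0.16. Elf3 was at -0.03 and did not pass. Esr1, the estrogen receptor, read 179 to 373 in PyMT (median 267) and 1120 to 2490 in FVB (median 1440), a log2 fold change of -2.45 ± 0.14 (adjusted p = 2.58e-12). The 12 PyMT libraries lay within a narrow range, far below the lowest FVB library.

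Foxa1, the pioneer factor that opens chromatin for it, read 0 to 91.3 in PyMT (median 20.7) and 237 to 575 in FVB (median 409), and its log2 fold change was -4.0 ± 0.45, or -3.35 without the packet libraries. Pgr, the progesterone receptor and an estrogen target, read 0 to 97.6 and 258 to 1490, a log2 fold change of -3.93 ± 0.49. Prlr, the prolactin receptor, fell by 1.21 (SE 0.15), from 3950 to 11300 in FVB to 1620 to 3180 in PyMT. None of these 4 genes had an overlapping library, and Areg, described above, is another gene that estrogen induces. Esr1 is also expressed in stroma, whose own markers were lower. Whether less stroma or less estrogen signaling lies behind these values was not tested.

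Most basal markers fell. Of 12 members, 8 were lower DEGs and none was higher, with a median of -2.35. Myh11, smooth muscle myosin, read 118 to 650 in PyMT (median 426) and 1990 to 4970 in FVB (median 3020), a log2 fold change of -3.10 ± 0.23. Acta2 (-2.59 ± 0.23), Mylk (-2.28 ± 0.14), Cnn1 (-3.20 ± 0.44), Tagln (-2.42 ± 0.22) and the oxytocin receptor Oxtr (-3.13 ± 0.25), which triggers milk ejection, moved alike. Several of these genes are also made by smooth muscle of vessels. Des, another of the 8, was at -3.85, and at -2.69 without the muscle libraries. Des did not pass with limma voom (-1.98) or without the packet libraries (-4.67). Krt17, a keratin of basal cells, was also a lower DEG (-1.95 ± 0.42). Without the packet libraries, where only weeks 8 and 12 compare the genotypes, the value of Krt17 was -0.39. The basal keratins Krt5 and Krt14 and the basal transcription factor Trp63 did not pass. Krt5 had a log2 fold change of 0.00 ± 0.40, Krt14 of 0.22 ± 0.36 and Trp63 of -0.10 ± 0.19. For Trp63 the 12 PyMT libraries read 239 to 496 and the FVB libraries 182 to 665, and its 95% interval ran from -0.50 to 0.30.

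Fat markers fell in every library. All 18 were lower DEGs, the groups of all 18 did not overlap, and the median log2 fold change was -3.94. Adipoq, which encodes adiponectin, read 45.9 to 688 in PyMT (median 345) and 3180 to 10700 in FVB (median 5960), a log2 fold change of -4.14 ± 0.35 (adjusted p = 8.32e-10). The lipid droplet coat gene Plin1 (-4.01 ± 0.34), the fatty acid carrier Fabp4 (-3.78 ± 0.37), lipoprotein lipase Lpl (-4.0 ± 0.33) and leptin, Lep (-4.34 ± 0.40), were alike. The smallest falls were of the transcription factor Cebpa (-2.44 ± 0.15) and the lipase Pnpla2 (-2.89 ± 0.24). At week 6 the loss was less than later, for Adipoq -2.67 against -4.09, -5.05 and -4.69, but the test of a change between weeks did not pass for any member after adjustment.

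Stromal and vessel markers also fell. Among 18 fibroblast and matrix genes 16 were lower DEGs, with a median of -1.87. Dcn, the proteoglycan decorin, read 488 to 1510 in PyMT (median 974) and 3750 to 13800 in FVB (median 6710), a log2 fold change of -2.93 ± 0.20. Pdgfra, a receptor of fibroblasts, fell by 2.19, and the collagen genes Col1a1 (-1.64 ± 0.24) and Col3a1 (-1.78 ± 0.20) fell less. Eln, elastin, stood apart with -0.21 ± 0.23 (adjusted p = 0.49), and its values by week were -0.98, -0.72, 0.85 and 0.07. All 12 endothelial markers were lower DEGs with a median of -2.41, 11 of them without overlap. Kdr, the main VEGF receptor, read 116 to 376 in PyMT, against 818 to 2210 in FVB (-2.52 ± 0.19), and Vwf fell by 3.05.

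Of 14 macrophage markers 1 was a higher and 2 were lower DEGs, near the 8.51% and 17.2% of all tested genes, with a median of 0.00. The receptors Csf1r (-0.67 ± 0.17) and Mrc1 (-0.87 ± 0.19) passed as lower with a fold of at most 2. Lyz2 (0.17 ± 0.19) and the complement genes C1qa (-0.13 ± 0.15), C1qb (0.02 ± 0.20) and C1qc (-0.03 ± 0.17), all made by tissue macrophages, did not pass. The scavenger receptor Cd163, a gene of resident macrophages, fell by 2.16 (SE 0.39). The receptor kinase Mertk fell too (-1.05, and -1.13 without the packet libraries). Msr1 passed narrowly at 1.01 ± 0.42 (adjusted p = 0.0469) and did not pass when any 1 of several libraries was left out, for example at an adjusted p of 0.0777 without replicate 2 of PyMT week 6. Only 3 of 12 lymphocyte markers reached the filter. None of these 3 passed, with the pan-leukocyte gene Ptprc at -0.05 ± 0.17.

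Skeletal muscle genes rested on few libraries. All 12 were lower DEGs with a median of -4.66, yet none had groups without overlap. Myh4, a fast myosin, read 15 to 252000 normalized counts in FVB with a median of 144, and 0 to 15500 in PyMT with a median of 102. The high FVB values were 236000 and 59100 at week 6, 252000 at week 10 and 126000 at week 12. Without replicate 3 of FVB week 10 only 2 of the 12 genes were DEGs, and without all 7 libraries rich in muscle RNA 3 of 12 were, with a median of -1.93. Removal of those 7 libraries left 1237 higher and 2300 lower DEGs in all. Among 7 nerve and Schwann cell markers 2 were higher and 3 lower, beside 8.51% and 17.2% of all tested genes. Sox10, which some mammary epithelial cells also express, rose from 120 to 905 in FVB to 1220 to 2290 in PyMT, by 1.83 ± 0.24.

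**Figure D3:**
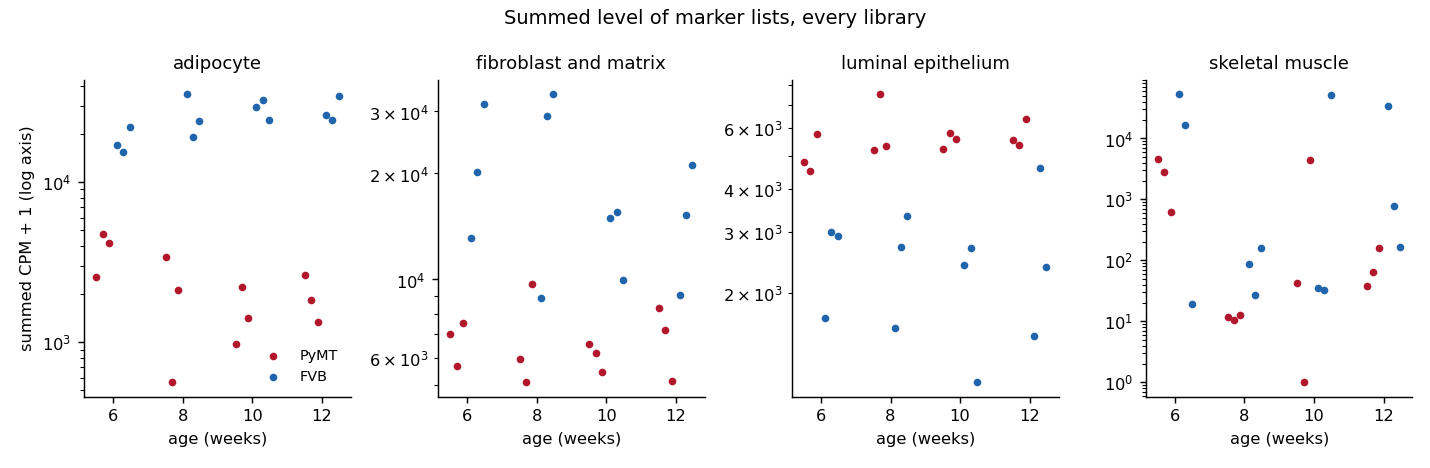
Summed CPM plus 1 (y, log axis) of 4 marker lists in every library, by age in weeks (x), with PyMT libraries in red and FVB libraries in blue. Adipocyte sums ran from 560 to 4750 CPM in PyMT and from 15500 to 35400 in FVB, whereas skeletal muscle sums reached 53300 in single FVB libraries and 4690 in PyMT.

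Proliferation genes rose. Of 22 members 20 were higher DEGs and the remaining 2, Mcm4 (0.97 ± 0.24) and Mcm7 (0.64 ± 0.18), passed with a smaller fold, and the median was 1.85. Mki67, a nuclear protein of cycling cells, read 3140 to 6020 in PyMT (median 4240) and 188 to 3280 in FVB (median 677), a log2 fold change of 2.33 ± 0.39 (adjusted p = 2.39e-05). The groups overlapped through 1 FVB library, replicate 2 of week 6 with 3280. At week 6 and week 8 FVB read 263, 3280, 1860, 188, 1210 and 2170, and at least 3140 was read in every PyMT library. Of the 22 members only 2 had groups without overlap. Rrm2, the small subunit of ribonucleotide reductase, was 1 of these 2, with 486 to 1450 in PyMT against 0 to 372 in FVB (2.98 ± 0.48, and 3.57 without the packet libraries). Among mitotic genes Ccnb1 rose by 3.42 ± 0.63, Cdk1 by 2.67 ± 0.52 and Top2a by 2.36 ± 0.43, but Bub1 by 1.77. Among replication genes Pcna rose by 1.05 ± 0.14 and Tyms by 1.33 ± 0.21, but Rrm2, as given above, by 2.98. The ranges of mitotic and replication genes thus overlapped, and a difference between them was not tested. Without the packet libraries Top2a was at 3.08, and without the muscle libraries Pcna was at 0.95, under a fold of 2. The motif TTTCCCGC of E2F factors, sought on both strands, was in 2 of the 19 members with a window (Mcm3, Mcm7). Of all genes with a window, 1.24% held it.

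MAPK feedback and ETS target genes were selective. Of 15 tested, 5 were higher DEGs and none was lower, beside 8.51% and 17.2% of all tested genes. The median was 0.58. The ETS factors Etv1 and Etv5, which ERK signaling induces, rose by 3.23 ± 0.24 and 2.13 ± 0.19, while their relative Etv4 did not pass (0.36 ± 0.31). Etv1 read 367 to 2010 in PyMT (median 806) and 51.1 to 166 in FVB (median 84.3). The phosphatase Dusp5, which acts on nuclear ERK, read 284 to 1090 in PyMT, against 0 to 134 in FVB (3.08 ± 0.42), and its cytoplasmic relative Dusp6 passed with 0.76 ± 0.16. Ier3 (2.49 ± 0.21) and Phlda1 (1.86 ± 0.28) also rose without overlap. In the other direction the receptor pathway inhibitors Spry1 (-0.94 ± 0.19) and Spry4 (-0.89 ± 0.26) passed with a fold of at most 2. The immediate early gene Egr1 (-0.70 ± 0.33) and cyclin D1, Ccnd1 (0.58 ± 0.27), did not pass.

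Genes of the proteins that middle T binds and of the AKT pathway mostly differed by less than a fold of 2. None of 23 was a higher DEG, 2 were lower, and the median was -0.30. Over all tested genes 8.51% were higher and 17.2% were lower DEGs. The kinase Fyn read 78.3 to 390 in PyMT, against 318 to 683 in FVB (-1.54 ± 0.19), and Akt2, the AKT isoform prominent in fat and muscle, fell by 1.46 (SE 0.14). Src itself passed with 0.72 ± 0.20 and the regulatory subunit Pik3r1 with 0.69 ± 0.09, the latter without overlap (6420 to 10700 against 4280 to 6380). Mtor, the kinase of both mTOR complexes, and Plcg1, which encodes phospholipase C gamma 1, each fell by 0.74 on the log2 scale, without overlap. Pik3cb (-0.05 ± 0.14), Rictor (-0.04 ± 0.07) and Rptor (-0.03 ± 0.10) had intervals within 0.5 of no change. Small changes in this list depend on scaling. With library size alone the median was 0.00, and Shc1, Gab1, Gab2, Pik3ca and Pdpk1, which lay between -0.54 and -0.30 after TMM scaling, no longer passed.

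Genes of protein folding in the ER rose. All 16 members passed and were higher, 8 of them as DEGs, and 11 had no overlap, with a median of 0.99. Xbp1, the transcription factor of the unfolded protein response and of secretory cells, read 6260 to 12300 in PyMT (median 8500) and 1400 to 2450 in FVB (median 1690), a log2 fold change of 2.30 ± 0.11 (adjusted p = 2.75e-13). Hspa5, the main ER chaperone, read 5340 to 8680 in PyMT (median 6520) and 2120 to 3350 in FVB (median 2470), a log2 fold change of 1.40 ± 0.10. By week its value was 1.5, 1.45, 1.63 and 1.00, each with an SE of about 0.18. The chaperones Hsp90b1 (0.92 ± 0.09), Calr (0.94 ± 0.10) and Canx (0.64 ± 0.07) and the disulfide isomerase Pdia4 (1.03 ± 0.09) rose by less. Ddit3, a factor of terminal ER stress that stands in the amino acid list, had -0.23 ± 0.25 and did not pass. The count of ER genes above a fold of 2 was 14 with library size scaling and 5 without the packet libraries.

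The windows of 2 ER chaperones are printed because their genes rose without overlap and carry the ER stress response element, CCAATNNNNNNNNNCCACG, bound by NF-Y and ATF6. The element was sought on both strands, and also after the list's values were known. It was in 7 of the 14 members with a window (Hspa5, Calr, Hsp90b1, Canx, Pdia6, Dnajc3 and Creld2). Of all genes with a window, 0.137% held it. Capitals mark the matches, in chr2:34771840-34772139 (plus strand) for Hspa5 and chr10:86705395-86705694 (minus strand) for Hsp90b1, GRCm38.p6.
Hspa5: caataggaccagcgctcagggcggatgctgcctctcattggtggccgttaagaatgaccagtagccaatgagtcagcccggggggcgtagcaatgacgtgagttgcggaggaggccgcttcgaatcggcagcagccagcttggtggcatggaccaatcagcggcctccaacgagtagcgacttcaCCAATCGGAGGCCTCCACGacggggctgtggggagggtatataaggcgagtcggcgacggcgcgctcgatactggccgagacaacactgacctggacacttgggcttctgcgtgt
Hsp90b1: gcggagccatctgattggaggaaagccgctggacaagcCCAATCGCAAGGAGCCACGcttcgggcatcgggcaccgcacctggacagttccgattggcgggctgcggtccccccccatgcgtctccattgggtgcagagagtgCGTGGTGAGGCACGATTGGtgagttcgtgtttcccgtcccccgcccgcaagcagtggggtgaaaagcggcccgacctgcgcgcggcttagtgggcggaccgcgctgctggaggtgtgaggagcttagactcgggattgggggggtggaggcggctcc
The match of Hspa5 begins 65 bases before the start, and those of Hsp90b1 begin 212 and 107 bases before it, the latter on the other strand. Overlap of the 3 motifs with other motifs was not examined.

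Amino acid genes were divided. Of 18, 5 were higher and 2 were lower DEGs, beside 8.51% and 17.2% of all tested genes, with a median of 0.39. The large neutral amino acid transporter Slc7a5 read 746 to 2410 in PyMT, against 44.2 to 521 in FVB (2.33 ± 0.30), and Psat1 of serine synthesis (1.35 ± 0.18) and Shmt2 of mitochondrial one-carbon metabolism (1.13 ± 0.14) also did not overlap. The 2 enzymes of proline synthesis, Pycr1 (1.40 ± 0.28) and Aldh18a1 (1.15 ± 0.17), rose with them. Without the packet libraries Pycr1 was at 1.63 and Psat1 at 0.97. The transcription factor Atf4 (0.35 ± 0.10), its targets Trib3 (1.00 ± 0.28) and Slc3a2 (0.35 ± 0.10) and the alanyl-tRNA synthetase Aars (0.52 ± 0.09) passed as higher with a fold of at most 2. Asns (0.30 ± 0.19) and Phgdh (-0.03 ± 0.24) did not pass, Atf5 fell by 1.22, and Chac1 fell by 2.83, though without the muscle libraries Chac1 was at -1.65 and did not pass (adjusted p = 0.141).

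Reference genes differ in how well they could serve across this comparison. Of 15, Tfrc, the transferrin receptor, was higher by 2.11 ± 0.16 and B2m, the light chain of MHC class I, fell by 1.99 (SE 0.25). The other 13 differed by a fold of at most 2, the mitochondrial enzyme gene Sdha with -0.97 ± 0.21. Actb, beta-actin, had 0.30 ± 0.11 (adjusted p = 0.028), with weekly values of 0.27, 0.33, 0.33 and 0.26. Tbp (0.16 ± 0.12) and Polr2a (0.11 ± 0.12) were nearest to no change among those with narrow intervals. Gapdh, Ppia, Pgk1 and Rplp0 have many processed copies in the genome, and Gapdh had a median of only 113 normalized counts in either genotype, so their values are uncertain. With library size scaling 4 of the 15 were higher DEGs.

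**Figure D4:**
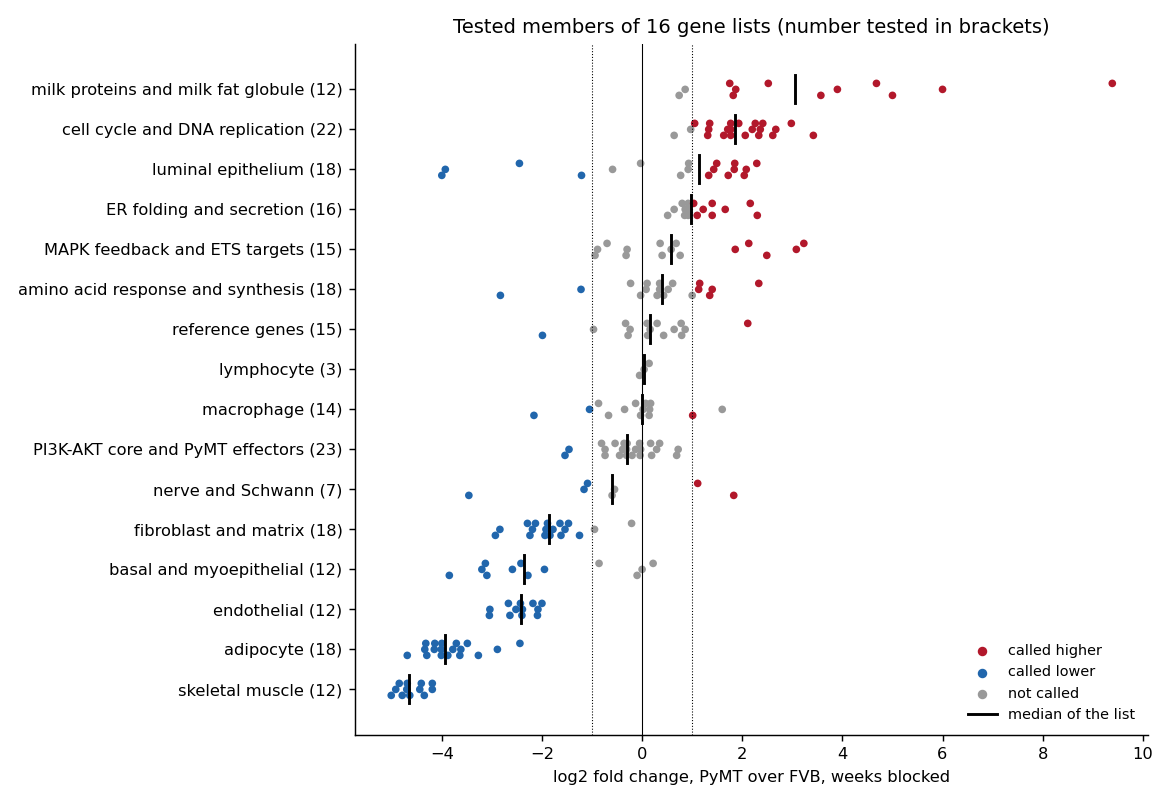
Week-blocked log2 fold change, PyMT over FVB (x), of the tested members of 16 gene lists (rows, number tested in brackets). Each point is 1 gene, red for higher and blue for lower DEGs, bars are list medians from -4.66 (skeletal muscle) to 3.05 (milk), and dotted lines mark a fold change of 2.

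A pooled difference would mislead if it changed between weeks. A test of genotype by week, with 3 degrees of freedom in a fit of the 8 groups, found 0 genes at an adjusted p under 0.05 (0% of 14918), and 494 (3.31%) at an unadjusted p under 0.05. DESeq2's likelihood ratio test found 17, edgeR's likelihood ratio test 26 and limma voom with sample weights 4. The 4 of limma voom included 2 milk genes, Csn3 (adjusted p = 0.00956) and Btn1a1 (adjusted p = 0.0235). Without the 7 libraries rich in muscle RNA edgeR's quasi-likelihood test called 1 gene, Lalba (adjusted p = 0.000787), whose values by week with all libraries were 6.2, 8.99, 5.93 and 3.6. The sign of the difference was the same at all 4 weeks in 9425 genes (63.2%). The smallest adjusted p was that of Trip13, a mitotic checkpoint ATPase, at 0.0531. It read 141, 103 and 83.6 in PyMT and 0 in all 3 FVB libraries at week 10, whereas at week 6 it read 173, 127 and 135 against 20.9, 89.5 and 63.4. Because FVB was at 0, its fitted value at week 10 depends on the prior count and is not given. Trip13 was named after its values had been seen. Missing the threshold does not show that the 4 weeks were alike, since the median SE was 0.42 at a single week.

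Values by week differed in how even they were. Elf5 had 2.39, 2.24, 2.45 and 2.10 at weeks 6, 8, 10 and 12, and Esr1 had -2.14, -2.25, -3.00 and -2.42. Mki67 went from 1.59 at week 6 to 2.95 at week 12, each with a wide SE, and its unadjusted interaction p was 0.501. Csn3 had 5.07, 5.85, 4.42 and 3.35 (edgeR unadjusted p = 0.0231, adjusted p = 1).

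**Figure D5:**
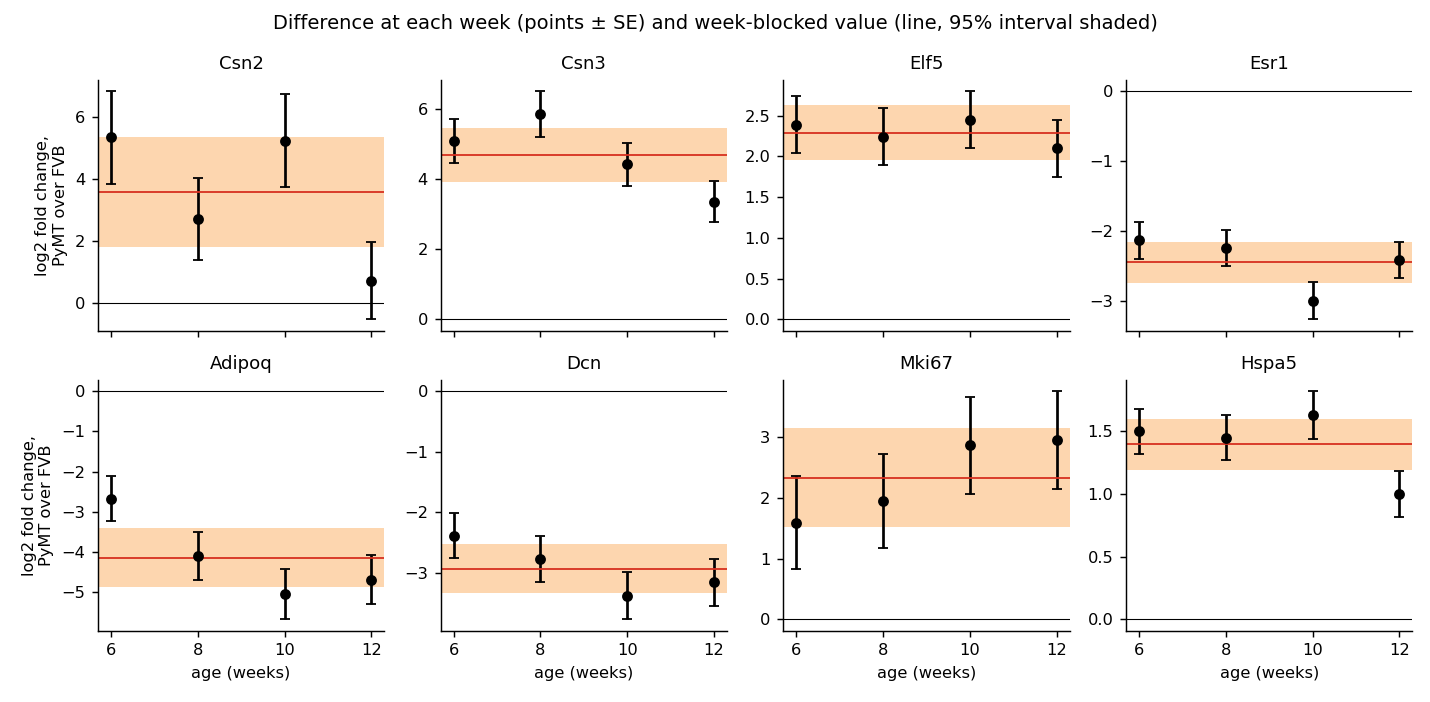
Log2 fold change, PyMT over FVB (y), at each age in weeks (x) for 8 genes. Points with bars are the value at 1 week ± SE from 3 PyMT and 3 FVB libraries, the red line is the week-blocked value from 12 and 12 with its 95% interval shaded, and the thin line is no change. Elf5 stays between 2.10 and 2.45, whereas Csn2 ranges from 0.72 to 5.34.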

How the data were processed

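The authors trimmed reads of strand-specific, rRNA-depleted libraries, aligned them with GSNAP to mm9 and counted reads per Ensembl gene with HTSeq, and the deposited table holds these raw counts for 37991 genes in 24 samples. It was used as deposited. Symbols and mm9 coordinates came from GENCODE M1, which had a model for 37205 of the genes.

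Genes with at least 1 CPM in at least 12 of 24 samples were kept. Counts were scaled by TMM and tested with edgeR's quasi-likelihood F test (edgeR 4.0.16, R 4.3.3) with week and genotype as terms, and Benjamini-Hochberg adjustment ran over all tested genes. The SE was the log2 fold change divided by the square root of F. Week by genotype was tested in a fit of 8 groups. DESeq2 1.42.0 and limma 3.58.1 gave alternatives. The fits were tested on simulated data. A packet was a peak in the number of genes by count at 5 or more reads, after smoothing with an SD of 1.5 reads. The cause of packets was not tested.

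Named genes were the 10 largest increases and decreases among DEGs with a mean of at least 100 and no overlap, list members with the largest or contrary change, the 5 genes in each direction with the largest F and a fold of at most 2, the 5 flattest genes with a mean of at least 1000, and the 5 largest shares of counts in each genotype. Members and lists were chosen with earlier results of these data known. Replicate numbers 1 to 3 recur in each group, but the labels do not say what a number marks. As not every same-numbered pair correlated over 0.1, a cut set by choice, the numbers were not used as pairs. By the paper, litter contributed slightly to the variation between samples, and the labels do not give litters. Whether a number marks a shared litter or batch was not tested. Leaving out each library, each week, the packet libraries or the muscle libraries, other scalings, filters and tests were tried. The depth of 6969375 to 13516601 counts limits the precision of genes at low counts, and p-values measure the spread between mice. The p-values do not allow for a litter or batch that mice may share. Some genes of the lists are counted in them but not reported here.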

Additional observations from a re-analysis of the deposited data

How the results depend on the processing

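In none of the alternatives run was a DEG called in the opposite direction, whereas counts moved. Higher DEGs numbered 2050 with library size scaling and 609 in a test against a fold change of 2, where lower DEGs numbered 1612. Leaving out each library in turn gave 1218 to 1321 higher and 2454 to 2589 lower DEGs. Groups without overlap numbered 1213 higher and 698 lower genes on CPM of the library total, and 1109 and 1636 without the 7 muscle libraries, an alternative chosen after seeing the data that has fewer samples. The test between weeks called 17 genes by DESeq2, 26 by edgeR's likelihood ratio test, 4 by limma voom, 1 without the muscle libraries and 0 to 2 with 1 library left out, and it could not be run without the packet libraries because 2 groups would be empty.

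Some values changed sign where the gene passed either in the reported fit or under the alternative. With library size scaling Arih1 was at 0.30 and Sp1 at 0.28. With limma voom Ckm was at 0.52, Myh4 at 0.79, Tnnt3 at 0.04, Tnni2 at 0.29, Tnnc2 at 0.63 and Actn3 at 0.89, and without the packet libraries Gusb was at -0.04. The cause was not tested. Of 222 genes followed that passed, 16 no longer passed when some 1 library was left out.

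Same-numbered samples of a week correlated at -0.0251 to 0.177, with 4 of 12 pairs over 0.1, and 14 of 24 samples correlated best with their own number. With a replicate block of 12 pairs 1336 genes were higher and 2443 lower, and with the number added to week 1293 and 2534. With that block the test between weeks called 0 genes (smallest adjusted p = 0.161).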

Other observations

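Genes of this section were named after their values had been seen. Several secreted or apical epithelial genes outside the lists rose without overlap. Lcn2, which encodes the iron-siderophore binding protein lipocalin 2, read 9430 to 16100 normalized counts in PyMT (median 12900) and 346 to 1500 in FVB (median 651), a log2 fold change of 4.21 ± 0.20 (SE). Spp1, which encodes osteopontin, read 7670 to 32800 in PyMT and 32.6 to 4380 in FVB (5.11 ± 0.59). The carbonic anhydrase Car12 reached 5.89 ± 0.33, the immunoglobulin transporter Pigr 5.37 ± 0.49, the potassium channel Kcnn4 4.50 ± 0.37, the water channel Aqp5 4.45 ± 0.42 and the chitinase-like gene Chi3l1 4.43 ± 0.28.

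Of 13 claudins tested, Cldn1, Cldn2, Cldn3 and Cldn7 were higher DEGs, with Cldn1 at 2.67 ± 0.25, and Cldn5, Cldn6 and Cldn15 were lower. These are 30.8% and 23.1% of the 13, against 8.51% and 17.2% of all tested genes. Cldn5 is an endothelial claudin and fell by 3.04 (SE 0.33).

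Hox genes, which encode positional homeobox factors, were at low counts. All 19 that reached the filter were lower DEGs, against 17.2% of all tested genes, with a median log2 fold change of -3.52. However, a gene could reach the filter through FVB alone, and only Hoxc8 had no overlap. With library size scaling 16 of the 19 were lower, and without the packet libraries 10 were. Mitochondrially encoded protein genes were lower in 7 of 9 tested, against the same 17.2%, with a median of -1.77. Nuclear copies of these genes make their counts uncertain. Among 768 pseudogenes 4.69% were higher and 4.82% lower DEGs, against 8.84% and 18.2% of 13393 protein-coding genes.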
